A study of Mus musculus with 40 samples.

Results

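The genes described here are 44 genes of the cell division cycle, found by their symbols among the 45706 genes of the deposited tables. Of these, 17 work in S phase or at its start and 27 work in G2 and mitosis, and all 44 had a row in both the count and the RPKM table. They were followed in 40 mouse RNA-seq libraries that fall into 10 groups of 4, made from cells sorted out of colon adenomas, healthy colon and blood. RPKM is the number of reads scaled by transcript length and by library size. It is not corrected for differences in RNA composition between libraries, such as the share of mitochondrial RNA. Levels of different groups are therefore compared with that limit.

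Tumor-bearing mice carried the transgene label Cdx2CreERT2 - Apc fl/fl. In this model both copies of Apc, the brake on Wnt signaling, are flanked by loxP sites, and a tamoxifen-dependent Cre is driven by the Cdx2 promoter, which is active in the colon epithelium. A single injection of 25 mg tamoxifen per kg body weight started adenoma formation, at 8 to 10 weeks of age by the labels, while the methods of the study give a wider age range. The 6 groups from these mice were tumor monocytes, tumor neutrophils, tumor epithelial cells, tumor stromal cells, blood monocytes and blood neutrophils. The 4 groups from healthy mice were blood monocytes, blood neutrophils, colon epithelial cells and colon stromal cells, labelled C57Bl6 with no transgene and no agent, and no age is given for them. The strain label of the tumor-bearing mice starts as C57Bl6/Sv129 and its last number goes up by 1 from library to library. Strain, transgene, tamoxifen and tumor therefore cannot be told apart in any comparison of tumor-bearing with healthy mice. The study sorted epithelial cells as EpCAM+ CD45-, stromal cells as EpCAM- CD45-, neutrophils as Ly6G+ and monocytes as Ly6G- with high Ly6C. Several blood titles name 2 mice, and the time between tamoxifen and sorting is not in the labels. By their titles some libraries of different groups come from the same mouse, which the main fits treat as independent. Of the 16 libraries of tumor and blood neutrophils and monocytes, 14 come from 6 mice, or pools that hold them, with libraries in more than 1 of those groups.

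A dividing cell first licenses its replication origins, copies its DNA in S phase, and then builds a spindle, aligns the chromosomes and splits. E2F factors switch on the S phase genes, while FoxM1 and the DREAM complex control a later wave of mitotic genes through promoter elements close to the transcription start. In the colon the dividing cells sit in the lower part of the crypt, and loss of Apc keeps epithelial cells in that state. Mature neutrophils and blood monocytes have left the cell cycle, and their dividing precursors are in the bone marrow.

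The libraries held between 10717873 and 38002939 counts. Mitochondrial genes took 5.34% to 83.9% of them, with 46.3% to 83.9% in epithelial cells and the highest value in replicate 4 of the healthy epithelial group. The marker genes of the sorted cells were checked as summed RPKM. Fibroblast markers such as Col1a1 and Dcn summed to between 501 and 2709 in healthy stromal cells but to only 6.9 to 26.4 in tumor stromal cells. Epithelial markers summed to 254 and 147 in replicates 1 and 2 of the tumor stromal cells, inside or close to the range of 163 to 410 in tumor epithelial cells, and to 55.0 and 30.8 in replicates 3 and 4. Endothelial markers were at 4.7 and 4.0 in the first pair and at 124 and 129 in the second. Marker levels thus differed widely among the tumor stromal libraries, and results that rest on them are given with and without replicates 1 and 2. In tumor neutrophils the epithelial markers reached 180 in replicate 1 and 13.8 to 38.1 in the others, against 0.7 to 1.6 in blood neutrophils of the same kind of mouse.

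Sequence upstream of the start was available for 36 of the 44 genes, from RefSeq on GRCm38.p6, as 250 bases before and 50 bases after the start. Of the 22 mitosis genes with a promoter, 17 held TTTGAA on either strand, the letters of the cell cycle genes homology region (CHR), which is 77.3% against 18.1% of all 27025 promoters of that length. In the stretch from 30 bases before the start to its end, 16 of the 22 held it, against 3.8% of all promoters. Only 1 of the 14 S phase genes held it anywhere in the window. CCAAT was found in 20 of the 22 mitosis genes and 8 of the 14 S phase genes, against 37.9% of all promoters. An E2F-like TTTNNCGC was found in 7 of the 14 S phase genes and 1 of the 22 mitosis genes, Cdk1, against 5.3% of all promoters. Matches of different motifs were counted separately even where they share bases, and a match is a description of the sequence, not of a bound site. No promoter was matched for Gins2, Aurkb, Kif20a, Ccne2, Mcm4, Tpx2, Ccna2 and Foxm1. The last 90 bases before the RefSeq start are shown for 4 mitosis genes and 1 S phase gene, with the matches in capitals. These 4 mitosis genes hold TTTGAA upstream of the start and do not stand for all. In many other mitosis genes it begins after the start, for example 32 bases after it in Aurka, 30 in Plk1 and 7 in Ttk.
Cdk1: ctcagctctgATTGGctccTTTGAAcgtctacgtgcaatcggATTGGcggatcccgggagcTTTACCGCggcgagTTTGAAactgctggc
Top2a: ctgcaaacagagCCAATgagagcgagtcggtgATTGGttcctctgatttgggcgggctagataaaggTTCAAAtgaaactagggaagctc
Kif11: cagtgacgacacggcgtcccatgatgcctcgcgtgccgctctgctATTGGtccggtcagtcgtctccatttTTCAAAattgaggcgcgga
Cdc20: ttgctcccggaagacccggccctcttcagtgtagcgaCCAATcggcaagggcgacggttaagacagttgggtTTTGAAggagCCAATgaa
Mcm6: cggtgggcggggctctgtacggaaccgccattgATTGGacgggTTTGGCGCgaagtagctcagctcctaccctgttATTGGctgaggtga
These lie on GRCm38.p6 at chr10:69352913-69353002 (minus strand) for Cdk1, chr11:99024190-99024279 (minus strand) for Top2a, chr19:37376292-37376381 (plus strand) for Kif11, chr4:118437344-118437433 (minus strand) for Cdc20 and chr1:128359706-128359795 (minus strand) for Mcm6. In the 4 mitosis genes a TTTGAA, or TTCAAA on the other strand, begins between 15 and 23 bases before the start, with a CCAAT or ATTGG further upstream. Cdk1 holds a second TTTGAA 71 bases before the start and the E2F-like match 29 bases before it. Mcm6, a subunit of the replicative helicase, has the E2F-like match 47 bases before its start and no TTTGAA there.

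Across the cell types the 44 genes were highest in colon epithelium. The median over the genes of their mean RPKM was 1.03 in healthy epithelial cells and 0.87 in tumor epithelial cells, followed by 0.68 in tumor stromal cells and 0.31 in healthy stromal cells. It was 0.27 in tumor neutrophils, 0.25 in blood monocytes of tumor-bearing mice, 0.14 in tumor monocytes and 0.13 in healthy blood monocytes. Blood neutrophils were lowest, at 0.069 in tumor-bearing and 0.049 in healthy mice. Healthy epithelial cells had the highest mean of all 10 groups for 25 of the 44 genes and tumor epithelial cells for 9 more. In bulk RNA a lower level cannot be separated into fewer dividing cells and less of the RNA in each cell.

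**Figure D1:**
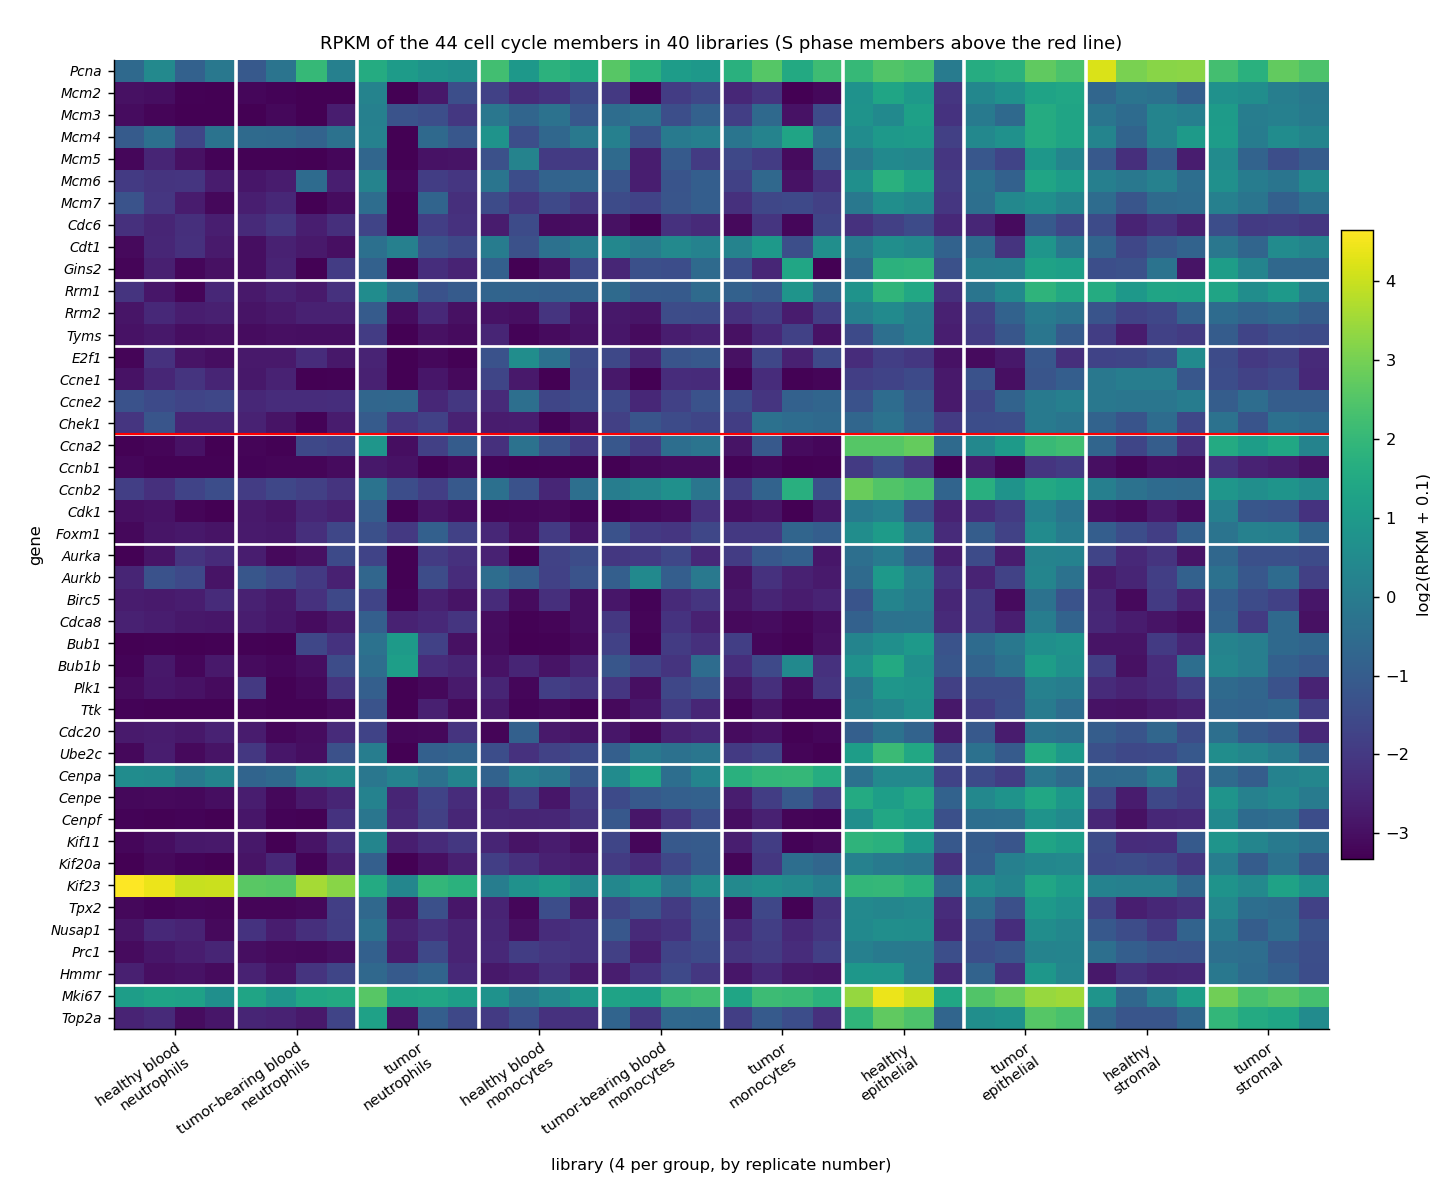
Level of each of the 44 genes (rows, by role) in each of the 40 libraries (columns, 4 per group), as log2(RPKM + 0.1). Epithelial libraries are brightest except replicate 4 of the healthy group, and Kif23 in blood neutrophils, Pcna in healthy stromal cells and Cenpa in tumor monocytes stand apart from the other rows.

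Mki67, the protein that coats mitotic chromosomes and is the common proliferation marker, was measured in every library. In healthy epithelial cells its RPKM was 10.4, 21.4, 16.04 and 2.62, and in tumor epithelial cells 5.52, 6.93, 10.7 and 11.4. In healthy stromal cells it was 1.64, 0.533, 1.04 and 2.13, below every tumor stromal library, which had 7.47, 5.07, 5.90 and 4.77. In the 6 neutrophil and monocyte groups its mean lay between 1.38 and 3.55. Its level in blood neutrophils was therefore above that in healthy stromal cells on average, while Top2a, the topoisomerase that untangles replicated DNA, was at 0.057 ± 0.033 (SD, n = 4) in healthy blood neutrophils and 0.43 ± 0.12 in healthy stromal cells.

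Top2a had its highest means in healthy and tumor epithelial cells, 3.95 ± 2.58 and 3.48 ± 2.28, then tumor stromal cells at 2.60 ± 1.00, and these 3 did not differ beyond their spread. In the other 7 groups its mean was at most 0.74, in tumor neutrophils. Cdk1, the kinase that drives entry into mitosis, had the same 3 groups on top at a lower level, with 0.57 ± 0.45 in healthy epithelial, 0.52 ± 0.46 in tumor epithelial and 0.45 ± 0.39 in tumor stromal cells, and at most 0.12 on average elsewhere. Rrm2, the inducible subunit of ribonucleotide reductase that supplies deoxynucleotides, was at 0.82 ± 0.53, 0.57 ± 0.31 and 0.51 ± 0.085 in those 3 groups and at 0.30 ± 0.11 in healthy stromal cells. Mcm5, another helicase subunit, was at 0.85 ± 0.51, 0.86 ± 0.73 and 0.63 ± 0.49 in the same 3 groups and its lowest mean was 0.0043 ± 0.0046, in neutrophils from the blood of tumor-bearing mice.

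Ccnb1, the cyclin that activates Cdk1, was close to the limit of detection. Its highest mean was 0.14 ± 0.11 in healthy epithelial cells, and the blood libraries held 0.1 to 4.4 estimated counts. The annotation holds a pseudogene named Ccnb1-ps, and how reads shared with it were counted is not given in the sources used here. The same limit holds for Pcna, Tyms and Ccnb2, which have pseudogenes named after them. Pcna, the sliding clamp of the DNA polymerases, had an order of its own. It was highest in healthy stromal cells, with 18.5, 8.24, 9.32 and 9.54, above every other library of the series, and its mean in the other groups ran from 0.77 in healthy blood neutrophils to 4.98 in tumor stromal cells.

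**Figure D2:**
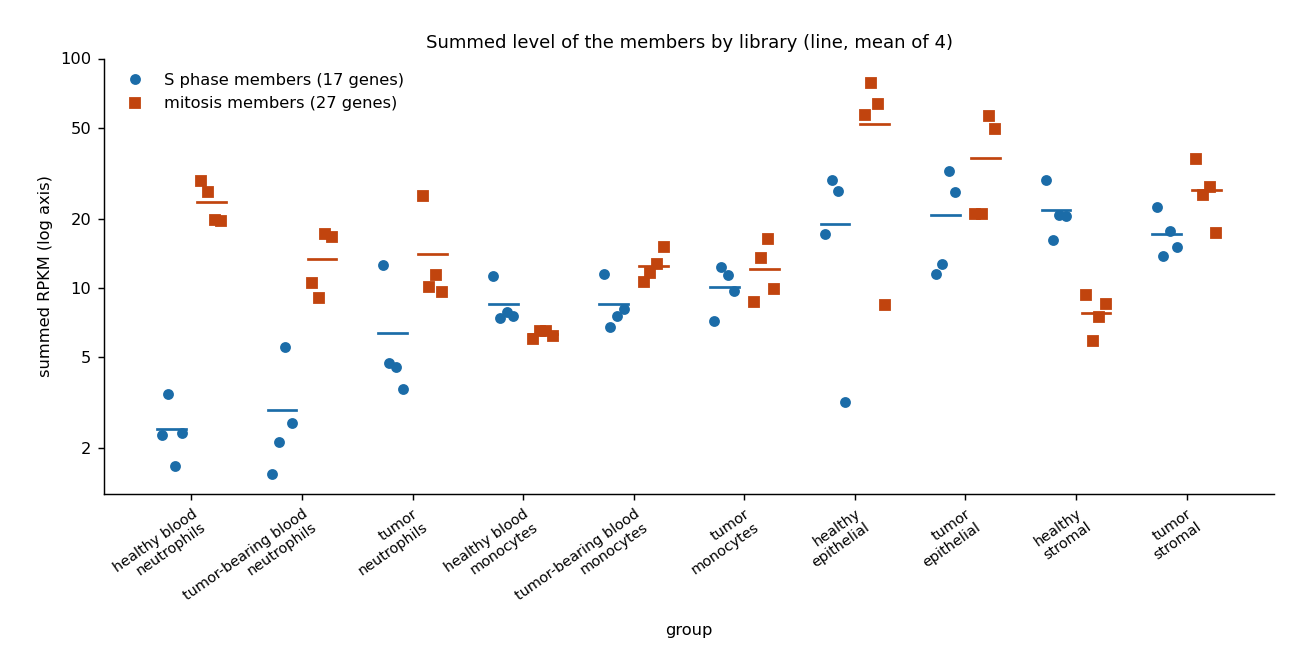
Summed RPKM of the 17 S phase and 27 mitosis genes in each library (points, log axis) with the mean of each group of 4 (line). The mitosis sum of healthy blood neutrophils is 19.5 to 29.2, mostly from Kif23, and the mitosis sums of healthy stromal cells lie below those of tumor stromal cells in every library.

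Summed RPKM of the mitosis genes was divided by that of the S phase genes within each library, a ratio that no scaling between libraries can change. It was 2.39 to 3.30 in healthy epithelial cells and 1.64 to 1.88 in tumor epithelial cells, with no overlap. In stromal cells it went the other way, from 0.31 to 0.41 in healthy colon to 1.15 to 1.85 in tumors. In blood monocytes it was 0.53 to 0.88 in healthy and 0.93 to 1.86 in tumor-bearing mice. Healthy blood neutrophils had the highest ratios, 7.57 to 12.8, and without Kif23 theirs was 1.39 to 2.56. Leaving Kif23 out kept the epithelial groups apart, at 2.26 to 3.08 and 1.56 to 1.80, and the stromal groups too, at 0.28 to 0.39 and 1.05 to 1.75. In healthy stromal cells Pcna alone gave 11.4 of the mean S phase sum of 21.8 RPKM.

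The first colon comparison asked how adenoma epithelial cells differ from healthy colon epithelial cells. The quasi-likelihood test of edgeR was run on 8 libraries, and a gene was called changed at a Benjamini-Hochberg adjusted p under 0.05 and a log2 fold change beyond 1.5 in either direction, the thresholds of the study. All 44 genes passed the filter on low counts. None was called higher in tumors, against 7.52% of all 16085 genes tested, and 1 was called lower, against 7.88%. The gene that fell was Cenpa, the histone variant that marks the centromere, by 1.52 on the log2 scale (SE 0.36, adjusted p = 0.0118). Its range over the alternative settings ran from an adjusted p of 0.000431 to 0.431, and in 4 of 8 fits without 1 library it was not called. A further 5 mitosis genes had an adjusted p under 0.05 with smaller folds, namely Mki67 (log2 fold change -1.01, SE 0.22), Kif23 (-1.19, SE 0.26), Cenpf (-1.10, SE 0.25), Cenpe (-0.75, SE 0.23) and Ccnb2 (-1.26, SE 0.40).

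All 27 mitosis genes had a negative log2 fold change, with a median of -1.01, and 14 of the 17 S phase genes had one, with a median of -0.45. The median over all genes tested was -0.01, and 7964 of the 16085 were positive. Most single genes did not pass the test, for example with -0.64 (SE 0.39) for Top2a and -0.69 (SE 0.68) for Cdk1. The kinesin Kif20a (-0.02, SE 0.40) and the spindle factor Tpx2 (-0.27, SE 0.49) were near 0. Of the S phase genes, the helicase subunits Mcm2 (-0.02, SE 0.37), Mcm3 (-0.11, SE 0.49), Mcm4 (0.15, SE 0.29) and Mcm7 (-0.10, SE 0.30) and the cyclins Ccne1 (0.10, SE 0.67) and Ccne2 (0.49, SE 0.47) lay around 0, and the licensing factor Cdt1 had -1.14 (SE 0.55).

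This direction depended on how libraries were scaled. On the RPKM as deposited, Pcna was 3.96, 5.52, 4.98 and 0.906 in healthy and 2.99, 3.29, 6.39 and 5.20 in tumor epithelial cells, so the groups overlapped, and Mki67 overlapped as well. In limma fits on log2(RPKM + 1) and log2(RPKM + 0.1), 15 and 18 of the 44 genes were positive, none was called, and the median over all genes moved to 0.19 and 0.58. Relative to those medians the median of the 44 genes, -0.07 and -0.12, stayed lower. As CPM after TMM scaling over all 40 libraries, the 44 genes together summed to 1743, 2003, 1600 and 1086 in healthy and to 620, 700, 1191 and 1270 in tumor epithelial cells, where replicate 4 of the healthy group lay inside the tumor range. The low RPKM of replicate 4 of the healthy group went with its mitochondrial share of 83.9%, and without that library 2 genes were called lower, Cenpa and the spindle checkpoint kinase Ttk (log2 fold change -1.53, adjusted p = 0.0247).

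Among the genes that steer the cycle from outside the list, epithelial cells changed at 2 inhibitors of cyclin-dependent kinases. Cdkn1c rose from 0.61 ± 0.41 to 6.96 ± 3.26 RPKM (log2 fold change 2.48, SE 0.60, adjusted p = 0.0136). Cdkn2c fell by 3.28 on the log2 scale (SE 0.87, adjusted p = 0.0209), from 0.74 ± 0.59 to 0.11 ± 0.11 RPKM. None of the 8 G1 cyclins and kinases was called. Of 48 other replication genes tested 1 was called lower, E2f2 (log2 fold change -2.65), and of 50 other mitosis genes 2 were called lower, Cdca3 (-1.66) and Cdca2 (-1.54). Of all genes tested 7.52% were called higher and 7.88% lower.

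**Figure D3:**
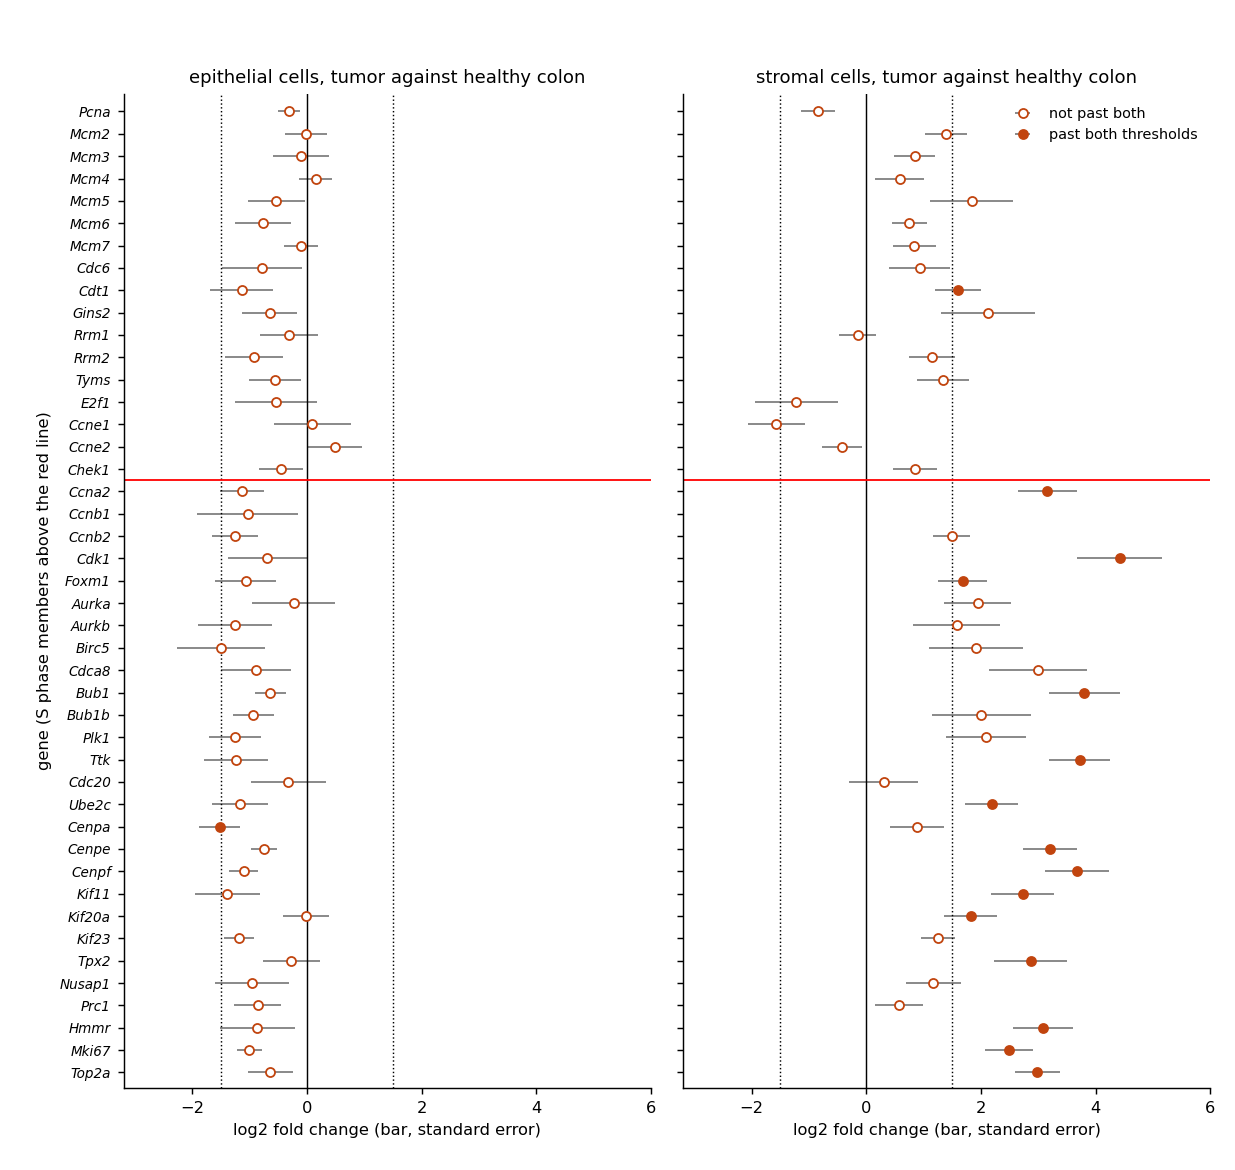
Log2 fold change of each gene (points, with its standard error) between tumor and healthy colon in epithelial cells (left) and stromal cells (right), from edgeR. Filled points passed an adjusted p of 0.05 and a log2 fold change of 1.5 (dotted lines), 1 gene on the left and 15 on the right, and every mitosis gene tested is below 0 on the left and above 0 on the right.

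The second colon comparison asked the same of stromal cells, and here mitotic genes rose. Of the 43 genes tested, 15 were called higher in tumor than in healthy stromal cells, against 3.39% of all 19081 genes, and none lower, against 5.01%. Of the 15, 14 were mitosis genes and Cdt1 was the only S phase gene. The median log2 fold change was 2.14 over the 26 mitosis genes tested, all of them positive, 0.85 over the 17 S phase genes and 0.03 over all genes. Cdk1 had at most 9.1 counts in a healthy stromal library, so it passed the filter through the tumor libraries. For genes this low the filter favors positive signs, so the count of signs is not read as a shift of the set. Mki67 and Top2a had at least 379.8 and 154.0 counts in every healthy stromal library.

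Cyclin A2 (Ccna2), the partner of Cdk1 and Cdk2 from S phase to mitosis, was at 0.511, 0.217, 0.409 and 0.117 RPKM in healthy and at 2.84, 2.05, 2.58 and 1.07 in tumor stromal cells. The groups did not overlap, and the difference was 3.16 on the log2 scale (SE 0.51, adjusted p = 0.00913). Top2a was at 0.523, 0.331, 0.325 and 0.532 in healthy and at 3.76, 2.83, 2.46 and 1.33 in tumor stromal cells, again without overlap (log2 fold change 2.98, SE 0.39, adjusted p = 0.00522). Mki67 rose by 2.49 on that scale (SE 0.42, adjusted p = 0.00998).

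By role, the regulators Cdk1 (log2 fold change 4.42, SE 0.74) and Foxm1 (1.68, SE 0.42) rose with Ccna2, while Ccnb2 had 1.49 (SE 0.33, adjusted p = 0.0257), just under the fold threshold, and Ccnb1 was not tested. Of the 8 mitotic kinases and checkpoint genes, Ttk (3.72, SE 0.53) and Bub1 (3.80, SE 0.62) rose. Aurka, Aurkb, Birc5, Cdca8, Bub1b and Plk1 had values from 1.58 to 2.99 with adjusted p-values from 0.0616 to 0.238. At the centromere the motor Cenpe (3.21, SE 0.46) and the kinetochore protein Cenpf (3.67, SE 0.55) rose, and Cenpa had 0.88 (SE 0.48). Of the spindle genes, Kif11, the motor that separates the poles (2.73, SE 0.55), Hmmr (3.08, SE 0.52), Tpx2 (2.87, SE 0.64) and Kif20a (1.82, SE 0.46) rose, and Prc1 and Nusap1 did not pass, with 0.57 (SE 0.42) and 1.17 (SE 0.48). Ube2c, the ubiquitin conjugase of the anaphase-promoting complex, rose by 2.19 on the log2 scale (SE 0.46), and Cdc20, the activator of that complex, had 0.30 (SE 0.60).

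The S phase genes were mixed. Cdt1 rose by 1.60 on the log2 scale (SE 0.41, adjusted p = 0.0410), and Mcm2 had 1.39 with an adjusted p of 0.0476. Mcm3 to Mcm7 had values from 0.58 to 1.84 and did not pass. Pcna, Rrm1, E2f1, Ccne1 and Ccne2 were negative, at -0.84, -0.15, -1.22, -1.57 and -0.42, with adjusted p-values from 0.0853 to 0.812. Pcna levels did not overlap, with 8.24 to 18.5 RPKM in healthy and 3.25 to 6.64 in tumor stromal cells (exact permutation test, two-sided, p = 0.0286, the smallest that 4 against 4 libraries allow), although the model across all genes did not call it.

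Markers of other cells moved with this result, and their part in it was not tested. Of the 4 tumor stromal libraries, replicates 1 and 2 held epithelial markers near the level of tumor epithelial cells, and replicates 3 and 4 held endothelial markers together with neutrophil markers at 1570 and 532 RPKM in sum. Mitochondrial genes took 55.4% and 62.9% of the counts of replicates 1 and 2, 27.4% and 24.8% of those of replicates 3 and 4 and 15.6% to 24.9% in healthy stromal cells, and the part of this was not tested either. Without replicates 1 and 2, 10 of the 15 genes were still called higher, against 2.7% of 20786 genes, with log2 fold changes of 2.97 for Cenpf, 3.34 for Ttk, 3.28 for Cdk1 and 2.29 for Mki67. Foxm1, Kif11, Kif20a, Tpx2 and Ube2c were no longer called, with edgeR adjusted p-values from 0.0759 to 0.142. In the 2 remaining tumor libraries Top2a was 2.46 and 1.33 RPKM, above all 4 healthy libraries. Leaving out any 1 library gave between 9 and 18 calls. Kif20a and Cdt1 were called in 1 of 8 such fits, Foxm1 in 2, Tpx2 and Ube2c in 3 and Kif11 in 6, and the other 9 in all 8.

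**Figure D4:**
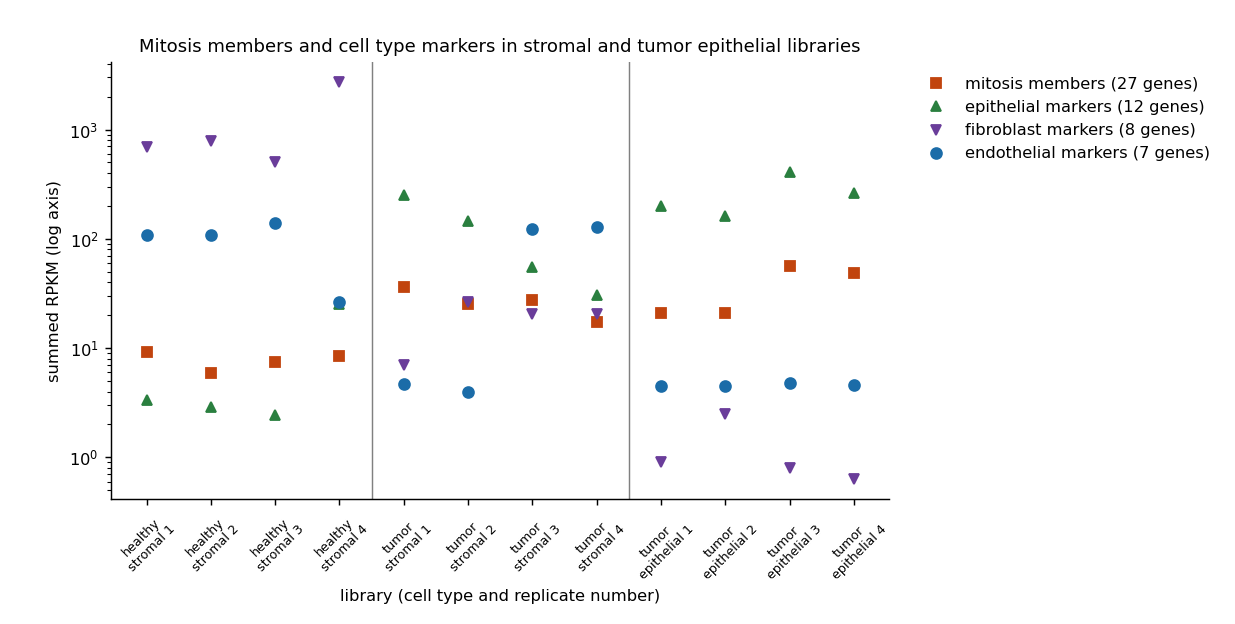
Summed RPKM (log axis) of the 27 mitosis genes and of epithelial, fibroblast and endothelial markers in each healthy stromal, tumor stromal and tumor epithelial library. Mitosis sums are 5.9 to 9.3 in healthy and 17.3 to 36.5 in tumor stromal libraries, while fibroblast markers run from 501 to 2709 in the first and from 6.9 to 26.4 in the second.

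With all 4 tumor stromal libraries, 23 of 45 other mitosis genes were called higher and 1 lower, against 3.39% and 5.01% of all genes. The largest rises were in Gtse1 (log2 fold change 4.03), Kif18b (3.65) and Kif4 (3.55). The gene that fell was Pttg1, the securin that holds back sister separation, by 1.77 on that scale (SE 0.45, adjusted p = 0.0404). Of 48 other replication genes 5 were called higher, among them E2f8 (2.76) and Mcm10 (2.11). None of the 8 G1 cyclins and kinases and none of the 9 inhibitors and pocket proteins tested was called.

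Whether the tumor effect differed between epithelial and stromal cells was tested as an interaction over 16 libraries. All 44 genes were tested, and 21 had a more negative effect in epithelial cells, against 7.25% of 20901 genes. None had a more positive one, against 6.81%. Of these, 19 were among the 27 mitosis genes and 2, Cdt1 and Rrm2, among the 17 S phase genes. The difference was -4.77 for Cenpf (SE 0.61, adjusted p = 0.000177), -5.11 for Cdk1 (SE 1.07), -3.62 for Top2a (SE 0.60) and -3.48 for Mki67 (SE 0.48). Without the first pair of tumor stromal libraries 15 of the 21 genes were still called, against 5.62% of 23068 genes with a more negative effect. Of the other cell cycle genes, tested with all 16 libraries, 29 of 50 mitosis genes and 11 of 48 replication genes had a more negative effect in epithelial cells. None had a more positive one.

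Within tumors, epithelial and stromal libraries were compared directly, 4 of the 8 from 2 mice that gave both. No gene of the 44 was called in either direction, against 0% of 16985 genes called higher and 0.0294% called lower, which is 5 genes in all. At an unadjusted p under 0.05 there were 3 of the 44, a count not set against the share of all genes at that level. Mki67 was 5.52 to 11.4 RPKM in epithelial and 4.77 to 7.47 in stromal libraries (log2 fold change 0.55, SE 0.21, adjusted p = 0.264), and Pcna was 2.99 to 6.39 and 3.25 to 6.64 (log2 fold change -0.20, SE 0.24), so both overlapped. With only replicates 3 and 4 as stroma, 1309 of 19784 genes were called higher in epithelial cells, which is 6.62%, and 3162 lower, which is 16%. Of the 44 genes 2 were called, Gins2 (log2 fold change 1.62, SE 0.46) and Bub1b (1.62, SE 0.49), both higher in epithelial cells.

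In neutrophils, the question was what changes between blood and tumor in tumor-bearing mice. The other 11 genes had too few counts to be tested. Of the 33 tested, 4 were called higher in tumor neutrophils, against 11.9% of 13674 genes, and 1 lower, against 4.41%. The 4 were Mcm3 (log2 fold change 4.61, SE 1.28, adjusted p = 0.0310), Cdt1 (4.00, SE 0.88, adjusted p = 0.0109), Prc1, a spindle midzone bundler (3.36, SE 0.79, adjusted p = 0.0147), and Rrm1, the large ribonucleotide reductase subunit (3.30, SE 0.73, adjusted p = 0.0109). All 4 stayed at low levels, for instance Cdt1 at 0.674, 1.01, 0.305 and 0.233 RPKM in tumor neutrophils and 0.023 to 0.065 in blood neutrophils. Of 8 fits without 1 library, Mcm3 was called in 4 and Prc1 in 5, and Cdt1 and Rrm1 in all 8. The median log2 fold change was 1.72 over the 33 genes and 0.11 over all genes, and 28 of the 33 were positive. Mcm3 and Cdt1 had at most 13.3 and 8.9 counts in these blood libraries, so they passed the filter through the tumor libraries. Genes this low in blood were tested only where tumor counts were high, which favors positive signs. The lean of the 33 genes is therefore not read as a shift of the set.

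Replicate 1 of the tumor neutrophils stood apart. Its 44 genes summed to 37.8 RPKM, against 14.7, 15.9 and 13.2 in the others, and its epithelial markers to 180, against 34.3, 38.1 and 13.8. Top2a was 2.28 in that library and 0.030, 0.43 and 0.23 in the others, while replicate 2 alone had Bub1 at 1.93 and Bub1b at 2.13 with 18 of the 44 genes at 3 counts or fewer. Without replicate 1, Cdt1, Prc1 and Rrm1 were still called higher, Mcm3 was not, E2f1 joined Kif23 among the lower genes (log2 fold change -3.35, adjusted p = 0.0408), and the median fell to 1.14. Mitochondrial genes took 37.5% of its counts, 33.2% at most in the other tumor neutrophils and 9.36% to 16.8% in blood neutrophils of tumor-bearing mice. The parts of epithelial RNA and of the mitochondrial share in these values were not tested.

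Kif23, a kinesin of the central spindle needed for cytokinesis, was the member with the highest level in blood neutrophils. Its RPKM was 25.1, 21.3, 15.6 and 15.9 in healthy blood neutrophils, 5.99, 5.70, 11.9 and 9.34 in those from the blood of tumor-bearing mice and 2.82, 1.17, 3.81 and 3.32 in tumor neutrophils. None of the 3 groups overlapped, and these were 1231 to 6781 counts per blood library. In the 7 groups of other cells its mean lay between 0.90 and 2.85, and no annotated gene overlaps it. It fell by 1.62 on the log2 scale from blood to tumor (SE 0.40, adjusted p = 0.0184). Its log2 fold change between tumor-bearing and healthy blood was -1.17 (SE 0.29, adjusted p = 0.0404), under the fold threshold, and the 2 comparisons share the blood libraries of the tumor-bearing mice. Granule genes of immature neutrophils such as Ltf and Camp differed between the same groups, with summed RPKM of 33.5 to 88.2 in healthy blood, 396 to 1223 in blood of tumor-bearing mice and 62.2 to 407 in tumor neutrophils, and their part in the result was not tested.

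**Figure D5:**
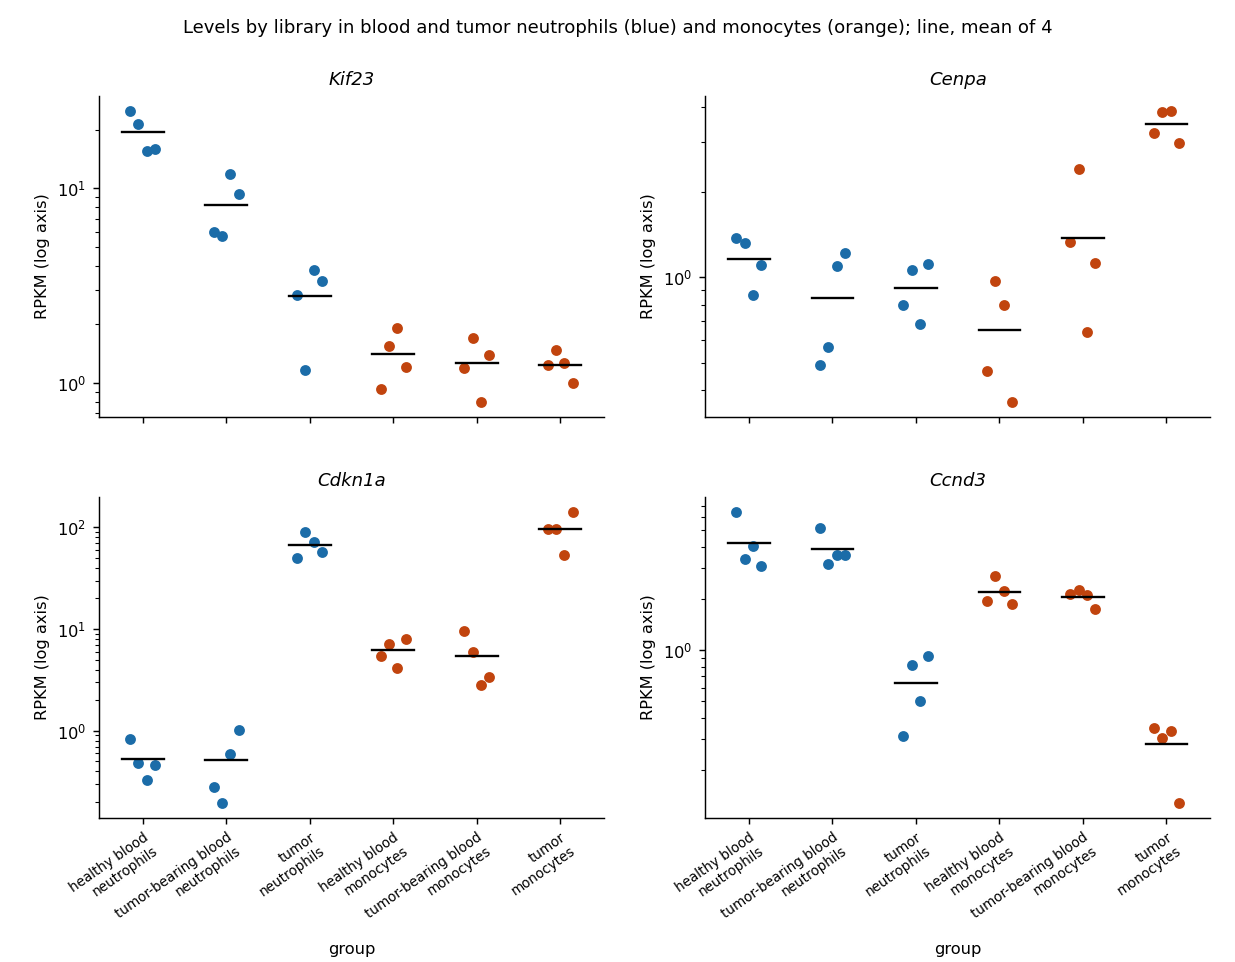
RPKM (log axis) of Kif23, Cenpa, Cdkn1a and Ccnd3 in each library of the 6 neutrophil and monocyte groups (points) with the mean of 4 (line). Kif23 runs from 15.6 to 25.1 in healthy blood neutrophils down to 1.17 to 3.81 in tumor neutrophils, Cenpa is 2.98 to 3.87 in tumor monocytes, and in both cell types Cdkn1a is higher and Ccnd3 lower in tumor than in blood.

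In monocytes the same comparison gave 1 gene higher in tumors, against 7.76% of 15280 genes, and 1 lower, against 3.89%, of 39 tested. Cenpa was 1.33, 2.40, 0.640 and 1.12 RPKM in blood and 3.22, 3.81, 3.87 and 2.98 in tumor monocytes, without overlap (log2 fold change 1.59, SE 0.37, adjusted p = 0.0152). Aurkb, the kinase of the chromosomal passenger complex that works at the centromere, fell by 3.26 on the log2 scale (SE 0.68, adjusted p = 0.00838). It was 0.436, 1.28, 0.426 and 0.826 RPKM in blood and 0.0294, 0.121, 0.0663 and 0.0488 in tumor monocytes, also without overlap. The call on Cenpa was lost in 4 of 8 fits without 1 library and that on Aurkb in none. The median log2 fold change was -0.03 both over these genes and over all genes, with 19 of the 39 genes positive. Mki67 (0.35, SE 0.30) and Pcna (0.56, SE 0.38) did not pass.

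The difference between neutrophils and monocytes in this step was tested over 16 libraries. Of 43 genes, 2 had a more positive effect in neutrophils, Cdt1 (3.57, SE 0.97, adjusted p = 0.0468) and Cdca8 (3.99, SE 1.10, adjusted p = 0.0489), against 2.73% of 17465 genes. Kif23 had a more negative one (-1.95, SE 0.51, adjusted p = 0.0381), against 1.23%. Leaving out replicate 1 of the tumor neutrophils left none, and single libraries left out gave 0 to 11 calls. With the replicate number as a block none was called. With the mouse of the titles as a random effect in limma-voom, an alternative added after seeing the data, Cdt1, Cdca8 and Kif23 had adjusted p-values of 0.0912, 0.136 and 0.0888 (0.0754, 0.11 and 0.0722 in limma-voom without the mouse), and Mcm3 (6.62, SE 1.38) and Cenpf (6.26, SE 1.60) were called.

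Of the 8 genes listed as G1 cyclins and kinases, all tested, 3 were called higher and 1 lower in tumor than in blood, in neutrophils and in monocytes alike. Of the 11 inhibitors and pocket proteins 1 was called higher in each, of 8 tested in neutrophils and 7 in monocytes, and none lower. Of all genes tested 11.9% were called higher and 4.41% lower in neutrophils, and 7.76% and 3.89% in monocytes. Cdkn1a, the p21 inhibitor that halts the cycle, averaged 0.52 ± 0.38 RPKM in blood and 67.7 ± 17.9 in tumor neutrophils (log2 fold change 7.16, SE 0.75, adjusted p = 0.000562), and 5.43 ± 3.06 in blood and 97.2 ± 36.4 in tumor monocytes (4.42, SE 0.42, adjusted p = 8.14e-05). Ccnd3, a D-type cyclin, fell in neutrophils from 3.89 ± 0.89 to 0.64 ± 0.28 RPKM and in monocytes from 2.05 ± 0.21 to 0.28 ± 0.10, with log2 fold changes of -2.44 and -2.60 (adjusted p = 0.00665 and 0.000974). Ccnd1 (4.02 and 2.62) and Cdk6 (2.04 and 1.53) rose in both cell types, Cdk4 (4.20) in neutrophils and Ccnd2 (3.14) in monocytes. The Ccnd1 values in tumor neutrophils ran from 0.027 to 5.59, with epithelial cells at 5.06 to 12.3 in tumors. Of 34 other replication genes tested in neutrophils 5 rose and 1 fell, E2f2 by 3.24, against 11.9% and 4.41% of all genes, and of 46 in monocytes none rose and 1 fell, again E2f2, by 2.00, against 7.76% and 3.89%. Of other mitosis genes 2 of 29 rose and 1 fell in neutrophils, and 1 of 34 rose and 5 fell in monocytes.

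Blood cells were then compared between tumor-bearing and healthy mice. In neutrophils none of the 25 genes tested was called by edgeR, against 1.79% of 13360 genes called higher and 2.22% lower. The count was also 0 by limma-voom and by DESeq2. An unadjusted p under 0.05 was reached by 7 of the 25 in edgeR, a count not set against the share of all genes. Mki67 was 1.48 to 2.35 RPKM in healthy and 1.71 to 2.77 in tumor-bearing mice, and Pcna 0.453 to 1.24 and 0.366 to 4.00, so both genes overlapped between the groups. Of the G1 genes, Cdk2 was higher (log2 fold change 1.53) and Ccnd2 lower (-2.32) in tumor-bearing mice, and the pocket protein gene Rbl1 was lower (-1.74).

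In monocytes none of 38 genes was called by edgeR, against 0.0914% of 15313 genes called higher and 0.118% called lower. An unadjusted p under 0.05 was reached by 11 of the 38 in edgeR, and DESeq2 called 4 higher. Neither count is set against its own share of all genes, so neither is read as a result. Here the estimates leaned one way, with 29 of 38 positive at a median of 0.83, against 0.02 over all genes. Of the 22 mitosis genes 21 were positive with a median of 1.3, and of the 16 S phase genes 8 were, with a median of 0.01. Chek1 and Ttk had at most 16.8 and 14.2 counts in the healthy libraries, so they passed the filter mainly through tumor-bearing mice. For genes this low the filter favors positive signs, and the lean is not read as a shift of the set. Mki67 was 1.58, 0.897, 1.25 and 1.79 RPKM in healthy and 2.35, 2.20, 4.14 and 4.50 in tumor-bearing mice. Those groups did not overlap (exact permutation test, two-sided, p = 0.0286), and the log2 fold change was 1.37 (SE 0.32, adjusted p = 0.131). Pcna was 1.82 to 4.67 and 1.81 to 5.93 and overlapped. The summed mitosis genes were 5.96 to 6.49 RPKM in healthy and 10.7 to 15.03 in tumor-bearing mice. Markers of granulocyte precursors such as Elane and Mpo moved with them, with sums of 2.5 to 5.9 in tumor-bearing and 0.6 to 1.6 in healthy mice, and so did granule genes of immature neutrophils, with 101 to 366 and 26.2 to 54.2. Their part in the result was not tested. None of the other cell cycle genes was called.

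Healthy blood monocytes and neutrophils were compared as the 2 starting states, with 6 of the 8 libraries from mice, or pools that hold them, that gave both. Of 35 genes tested, 10 were higher in monocytes, against 20.4% of 15033 genes, and 4 lower, against 16.7%. The higher S phase genes were Mcm3 (log2 fold change 5.66, SE 0.90), Mcm2 (2.87), Mcm5 (2.99), Cdt1 (2.60), Rrm1 (2.10) and E2f1 (3.11). The other higher ones were Ccna2 (3.85), Cenpf (3.86), Cenpe (2.08) and Ube2c (2.11). Mcm4, Mcm7, Cdc6, Rrm2, Tyms, Ccne1 and Ccne2 had values from -0.88 to -0.07 and were not called. Pcna and Mcm6 were positive but under the fold threshold. Mcm2, Mcm3, Mcm5, Cdt1, E2f1, Ccna2, Cenpf and Ube2c were too low to be tested in the comparison of blood neutrophils. Here they passed the filter through the monocyte libraries, which favors positive signs. These calls are therefore not read as a shift of the S phase genes. The lower ones were Kif23 (-4.55, SE 0.29, adjusted p = 4.68e-06), Chek1, the S phase checkpoint kinase (-2.82), Cdca8 (-2.53) and Cenpa (-1.60). Kif23 was 0.936, 1.55, 1.92 and 1.21 RPKM in monocytes, far under the 15.6 to 25.1 of neutrophils. The other genes stayed low on both sides, with Mcm3 at 0.353 to 0.799 in monocytes and at no more than 4 counts in any neutrophil library. Of 41 other replication genes 10 were higher and 2 lower in monocytes, and of 29 other mitosis genes 4 were higher and 5 lower. The largest of these was Racgap1 (log2 fold change 5.86, SE 0.48), whose protein forms a complex with that of Kif23 at the central spindle and which moved the other way from Kif23. Cdkn1a was higher in monocytes (2.80) and Ccnd2, Ccnd3, Cdkn1b and Cdkn2d were lower (-4.05, -1.75, -2.01 and -1.63).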

How the data were processed

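Total RNA from sorted cells was amplified with NuGEN Ovation V2 and sequenced as single reads on an Illumina HiSeq. Per the labels and methods, the authors aligned reads with Bowtie 2 to mm10, used the mapping and RNA-seq modules of HTSstation, and used limma with voom. The deposited tables hold estimated counts per gene (99.6% of nonzero values are not whole) and RPKM. The annotation release, strand setting and handling of reads that map to several places are not given in the sources used here, and many of these genes overlap a gene on the other strand. Estimated counts were rounded. Each comparison was tested on its 8 libraries (16 for interactions) with edgeR 4.0.16 using TMM, filterByExpr and the robust quasi-likelihood test, with Benjamini-Hochberg adjustment over all genes tested. Standard errors are the log2 fold change over the square root of F. Levels are RPKM as deposited. The deposited single-sample files were compared with the count table and did not differ from it. Symbols were matched to Ensembl identifiers with GENCODE M21. The model was tested on simulated counts. Alternatives were limma-voom, DESeq2, RLE scaling, other filters, all 40 libraries in 1 fit, limma on log2 RPKM, replicate blocks, and fits without single libraries. Replicates are separate labelled libraries, so p-values measure the spread between these libraries. Libraries of the same mouse, by title, were treated as independent, and an added limma-voom fit took the mouse as a random effect. The label replicate 3 occurs for 2 tumor stromal libraries, and the second was numbered 4. Genes given in every library were, per comparison, called genes with a mean RPKM of at least 1 and the largest fold, 1 per role and 4 at most, or Mki67 and Pcna where there were none, and 7 genes were followed through all groups. The genes, lists and rules were chosen with earlier results of these data known.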

Additional observations from a re-analysis of the deposited data

Results flagged for a closer look

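Among 120 groups of 4 libraries tested for 1 library standing far from the others, 16 values did. Independent normal values would give about 1 in 20 groups. Levels near 0 need not be normal, and the sums hold genes also tested singly, so the 16 are not read against that rate. Of the 16 values, 5 come from replicate 1 of the tumor neutrophils, the library whose epithelial markers sum to 180. They are Mki67 at 5.86 RPKM, Cdk1 at 0.408, Mcm5 at 0.514, the S phase sum at 12.6 and the mitosis sum at 25.2. In blood neutrophils of healthy mice Ccnb1 was high at 0.0112 in replicate 1. In blood monocytes of healthy mice Mcm5 was high at 1.08 in replicate 2, Rrm2 at 0.130 in replicate 3 and the S phase sum at 11.3 in replicate 1. In blood monocytes of tumor-bearing mice Top2a was low at 0.145 in replicate 2 and Cdk1 high at 0.120 in replicate 4. Ccna2 was high at 0.368 in replicate 2 of the tumor monocytes and low at 0.572 in replicate 4 of the healthy epithelial cells. In healthy stromal cells Ccnb1 was low at 0.00693 in replicate 2, Pcna high at 18.5 in replicate 1 and Kif23 low at 0.539 in replicate 4.

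By the interaction test in edgeR, the tumor effect was more positive in neutrophils than in monocytes for Cdca8 (3.99) and Cdt1 (3.57). Of all 17465 genes 2.73% were. It was more negative for Kif23 (-1.95), against 1.23% of all genes, with all values on the log2 scale. Of 16 fits without 1 library, Cdca8 and Cdt1 were called in 3 each and Kif23 in 5, and none was called without replicate 1 of the tumor neutrophils. The tumor effect differed between epithelial and stromal cells for 21 genes, each more negative in epithelial cells, against 7.25% of 20901 genes. Among regulators the differences were -5.11 for Cdk1, -4.29 for Ccna2, -2.75 for Ccnb2 and -2.75 for Foxm1. Among kinases and checkpoint genes they were -4.96 for Ttk, -4.44 for Bub1, -3.87 for Cdca8 and -3.35 for Plk1, and at the centromere -4.77 for Cenpf, -3.95 for Cenpe and -2.41 for Cenpa. Spindle genes gave -4.12 for Kif11, -3.96 for Hmmr, -3.14 for Tpx2, -2.45 for Kif23 and -1.85 for Kif20a. The remaining values were -3.62 for Top2a, -3.48 for Mki67, -3.36 for Ube2c, -2.72 for Cdt1 and -2.07 for Rrm2.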

How the results depend on the processing

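Counts of the 44 genes called moved with the processing as follows, and the cause was not tested. The share of all genes called is not given beside them, nor beside the counts of fits without 1 library. A higher or lower count is therefore not read as a stronger or weaker result for these genes. DESeq2 called 10 in neutrophils (5 by edgeR), 4 in monocytes (2), 4 in blood monocytes (0), 0 in epithelial cells (1) and 14 in the neutrophil and monocyte interaction (3), where RLE scaling gave 5. All 40 libraries in 1 fit gave 16, 4, 1 and 15 in neutrophils, monocytes, blood monocytes and that interaction. A minimum of 10 counts in every library left 3 in neutrophils, 1 in monocytes, 0 in epithelial cells and 2 in healthy blood (14), with fewer genes tested. With no filter 0 were called in epithelial cells and 0 in the neutrophil and monocyte interaction, and with no fold threshold 1 in blood neutrophils (0) and 6 in epithelial cells. On log2(RPKM + 1) the counts were 0 in neutrophils, monocytes, epithelial cells and both interactions, and 1 in stromal cells (15) and in healthy blood. On log2(RPKM + 0.1) they were 0 in epithelial cells, 8 in healthy blood and 5 in the epithelial and stromal interaction (21). Without tumor stromal replicates 1 and 2, an alternative chosen after seeing the data, 2 were called between tumor epithelial and stromal cells (0).

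By the titles some same-numbered libraries of different groups come from 1 mouse and others do not, so the numbers pair only part of the libraries, and deviations of same-numbered libraries correlated between -0.151 and 0.251, not above 0.1 in every pair of any comparison. With a replicate block 2 genes were called in neutrophils and 0 in the neutrophil and monocyte interaction. With the mouse as a random effect in limma-voom, added after seeing the data, 15 were called in healthy blood, 0 between tumor epithelial and stromal cells, and 2 and 21 in the interactions. The tumor against blood comparisons share 1 mouse each, too few for this fit.

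Leaving out 1 library at a time gave 2 to 9 calls in neutrophils, 1 to 4 in monocytes, 0 to 0 in both blood comparisons and between tumor epithelial and stromal cells, 0 to 2 in epithelial cells, 9 to 18 in stromal cells, 12 to 15 in healthy blood, 0 to 11 in the neutrophil and monocyte interaction and 18 to 25 in the other. No single gene called changed its direction under any alternative run. Low counts limit what could be seen in blood cells, where up to 15 of the 44 genes had 3 counts or fewer in a library.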
